A study of Rattus norvegicus with 20 samples.

Results

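The rat miR-144 and miR-451 cluster encodes 3 mature microRNAs (miRNAs) that were followed here: rno-miR-451-5p, rno-miR-144-3p and rno-miR-144-5p. They were taken by name from the per-array scanner files, as 3 of the 719 rat miRNAs on the array. The samples were kidneys of male Wistar rats of 80 to 100 g body weight. Rats received aristolochic acid I (AAI), a plant nephrotoxin, by intraperitoneal injection at 40 mg/kg, and kidneys were taken on day 2, day 4 or day 6. The labels do not settle whether that dose was given once or repeatedly, so the AAI groups may differ in total dose as well as in time. Control rats received the vehicle, PEG400 mixed with water, on the same schedule, and the vehicle kidneys analysed here were all taken on day 6. Days 2 and 4 therefore had no vehicle kidneys of their own day. There were 4 groups of 5 kidneys, with 1 Cy3 array per kidney. The labels do not say whether each kidney came from a different rat. The p-values set group differences against the spread between these kidneys. If any rat gave more than 1 kidney, the 5 kidneys of a group would not be independent, and the p-values could be too small.

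The cluster is an erythroid locus: the transcription factor GATA1 drives it as red cells mature. miR-451 is unusual in that its precursor is cut by Argonaute 2 rather than by Dicer, whereas miR-144 follows the usual Dicer route and can give a mature strand from each arm of its hairpin. In mouse erythroid cells miR-451 represses the adaptor protein 14-3-3zeta, and in human erythroid cells miR-144 represses the antioxidant factor NRF2. Mature red cells hold much miR-451, so whole-tissue RNA carries it with the blood that the tissue holds. In whole-kidney RNA, fewer cells of a type and less of an RNA per cell cannot be told apart.

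The sequences below show what was measured. Mature strands and hairpins are RefSeq sequences, found for all 3 members, on the plus strand of chromosome 10 in build GRCr8. Capitals in the mature strands mark the seed (bases 2 to 8), the stretch that chiefly sets which targets are bound.
rno-miR-451-5p, chr10:63459585-63459606: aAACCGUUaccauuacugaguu
rno-miR-144-3p, chr10:63459446-63459465: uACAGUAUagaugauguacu
rno-miR-144-5p, chr10:63459409-63459431: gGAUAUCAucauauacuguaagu

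None of the 3 seeds was shared with another member, nor with any other of the 693 rat mature miRNAs in the RefSeq table. Over bases 2 to 7 only, miR-144-3p matched miR-101a-3p and miR-101b-3p. In the hairpins, capitals mark the mature strands that were followed.
Mir144 hairpin, chr10:63459397-63459479: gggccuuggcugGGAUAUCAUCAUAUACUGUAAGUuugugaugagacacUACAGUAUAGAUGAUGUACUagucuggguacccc
Mir451a hairpin, chr10:63459569-63459640: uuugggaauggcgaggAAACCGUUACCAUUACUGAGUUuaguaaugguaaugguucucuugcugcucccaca

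The 2 hairpins lay 89 bases apart and spanned 244 bases. No other RefSeq gene overlapped that span, and the neighbouring genes were Flot2 and Eral1. Each mature strand had 2 probes on the array, a shorter and a longer one. Probe sequences and their positions (build rn4, minus strand) are those of the scanner files, and a capital marks the base by which the longer probe extends the shorter one.
miR-451-5p shorter probe, chr10:64129536-64129555: aactcagtaatggtaacggt
miR-451-5p longer probe, chr10:64129535-64129555: aactcagtaatggtaacggtT
miR-144-3p shorter probe, chr10:64129397-64129414: agtacatcatctatactg
miR-144-3p longer probe, chr10:64129396-64129414: agtacatcatctatactgT
miR-144-5p shorter probe, chr10:64129359-64129380: acttacagtatatgatgatatc
miR-144-5p longer probe, chr10:64129358-64129380: acttacagtatatgatgatatcC

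The miR-451-5p probes paired with bases 3 to 22 and 2 to 22 of the miRNA. The miR-144-3p probes paired with bases 3 to 20 and 2 to 20, and those of miR-144-5p with bases 2 to 23 and 1 to 23. Each probe was printed as 10 spots per array. A signal is the sum over a miRNA's probes of their mean background-subtracted brightness, in arbitrary units. A level is log2 of that signal over the array's 75th percentile, so that 0 is the 75th percentile of the miRNAs detected on all arrays. Signals are not molar, so the members' levels were not ranked against each other.

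Over the series, 250 to 328 miRNAs were called detected per array by the scanner software, 231 were detected on all 20 arrays, and no spot was saturated. The test was run on 262 miRNAs, those with a detection call throughout 1 group or more. The kidney-enriched miR-192-5p, miR-194-5p and miR-204-5p were detected on 20 of 20 arrays. The arrays lay on 3 slides, and slide and group were partly confounded. Slide 3 held vehicle kidneys 1 to 4. Slide 2 held vehicle kidney 5, all 5 AAI day 2 kidneys and AAI day 4 kidneys 1 and 2, and slide 1 held AAI day 4 kidneys 3 to 5 and all 5 AAI day 6 kidneys. Vehicle and AAI day 6 kidneys never shared a slide. AAI day 4 kidney 2 had the most miRNAs detected, 328.

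miR-451-5p was detected in all 20 kidneys, and its level was lowest in the AAI day 6 kidneys. In the vehicle kidneys its signal was 325, 454, 177, 268 and 251 units, in replicate order, and its level 0.06, 0.36, -1.35, -0.38 and -0.54. Kidney 2 was highest and kidney 3 lowest, 3.27-fold apart on the scaled scale. On AAI day 2 the signal was 222, 366, 709.7, 281 and 251.7 units and the level -0.85, -0.20, 0.26, -0.45 and -0.88. All 5 of these levels lay within the range of the vehicle kidneys.

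On AAI day 4 the signal of miR-451-5p was 155, 168, 259, 274 and 199 units and the level -1.25, -1.73, -0.95, -0.64 and -1.34. Kidney 2 lay below every vehicle kidney, and the other 4 overlapped with them. On AAI day 6 the signal was 62.1, 60.4, 67.6, 71.1 and 27.7 units and the level -3.11, -2.36, -2.96, -2.89 and -4.17. The highest AAI day 6 kidney lay below the lowest kidney of each other group, and kidney 5 was the lowest of all 20. The mean levels were -0.37 ± 0.65 for vehicle, -0.42 ± 0.48 for AAI day 2, -1.18 ± 0.41 for AAI day 4 and -3.10 ± 0.66 for AAI day 6 (SD, n = 5 each). In this order vehicle and AAI day 2 did not differ beyond their spread, and neither did AAI day 2 and AAI day 4 by the test over all miRNAs.

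**Figure D1:**
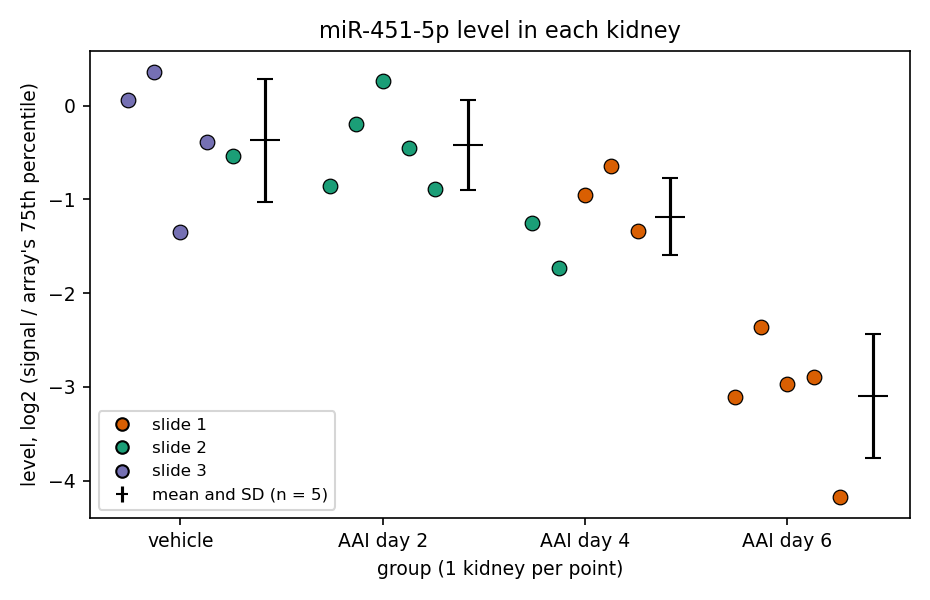
Level of miR-451-5p (y axis, log2 of signal over the array's 75th percentile) in each of 20 kidneys by group (x axis), coloured by slide, with the mean and SD of 5 kidneys beside each group. The AAI day 6 kidneys sit between -4.17 and -2.36, below all kidneys of the other groups, while vehicle and AAI day 2 overlap.

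The level of miR-451-5p fell between vehicle and AAI day 6. The difference was -2.73 ± 0.34 on the log2 scale (SE), a 6.62-fold lower level (95% interval 4.06 to 10.8), with an adjusted p of 1.91e-05 (limma, Benjamini-Hochberg over 262 miRNAs). An exact two-sided permutation test over all splits of the 10 kidneys into 5 and 5 gave p = 0.00794, the smallest it can give, and 0.0159 after adjustment over the 6 pairs of groups. By the limma test 26% of the miRNAs were called in this comparison and 18.7% were called lower, so a lower call was common. That split depended on the scaling between arrays: 19 miRNAs were called higher and 49 lower, against 34 higher and 1 lower without scaling, where the 1 was miR-451-5p, and 27 higher and 2 lower with spike-in scaling. A call with a level at least 2-fold lower was made for 1 miRNA of 262 (0.382%), and that was miR-451-5p. In 19.1% of the miRNAs all AAI day 6 kidneys lay below all vehicle kidneys, as they did for miR-451-5p. Its p ranked 2 among the 262.

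The vehicle and AAI day 6 arrays never shared a slide, so their difference within a slide has no value. With slide as a fixed block, which ties the groups together through AAI day 4 and vehicle kidney 5, the difference was -3.07. Slide 3 held only vehicle kidneys 1 to 4, so kidney 5 alone stood for vehicle in that fit. That block rests on few kidneys: without AAI day 4 kidney 2 the difference was -2.83, and miR-451-5p was no longer called. With another background correction (normexp) the difference was -1.40 with a limma adjusted p of 4.71e-04. That setting added 50 units to every spot, and an added constant shrinks log2 differences between dim signals. On AAI day 6 the mean signal of the longer, brighter probe was at most 48.2 units in the main processing. The main processing subtracts background in another way than normexp. The share of this move that came from the added units was not tested.

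miR-451-5p also fell between AAI day 4 and AAI day 6. The difference was -1.91 ± 0.34 on the log2 scale, a 3.77-fold lower level (95% interval 2.31 to 6.14), with a limma adjusted p of 0.00520 and an exact permutation p of 0.00794, the smallest possible. Of the 262 miRNAs 0.763% were called in this comparison, which is 2 miRNAs, and miR-451-5p was the 1 called lower (0.382%). The kidneys of these groups did not overlap for it, which was so, in this direction, for 1.15% of the miRNAs. These groups shared slide 1, where the 5 AAI day 6 kidneys differed from the 3 AAI day 4 kidneys by -2.12 ± 0.37, all of them lower, with a limma adjusted p of 0.0509. There limma called 0 miRNAs, and 53 of 262 had an unadjusted p under 0.05. Under normexp correction, with its 50 added units, the difference was -0.85 with a limma adjusted p of 0.131, which ended the call.

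Between AAI day 2 and AAI day 6 the level of miR-451-5p fell by 2.67 ± 0.34 on the log2 scale, 6.38-fold (95% interval 3.91 to 10.4), with a limma adjusted p of 6.24e-05. In this comparison 11.1% of the miRNAs were called and 7.63% were called lower, with 9 called higher and 20 lower against 2 higher and 1 lower without scaling. Groups that did not overlap, with AAI day 6 below, were found for 7.25% of the miRNAs, miR-451-5p among them. With slide as a fixed block and without AAI day 4 kidney 2 the difference was -2.95 with an adjusted p of 0.0678. Under normexp correction it was -1.36, with an adjusted p of 9.44e-04. The AAI day 2 and AAI day 6 arrays shared no slide.

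The earlier time points did not pass the test over all miRNAs. AAI day 4 minus vehicle was -0.81 (95% interval -1.52 to -0.11), with a limma adjusted p of 0.157, where 3.44% of the miRNAs were called. On slide 2 the 2 AAI day 4 kidneys lay at -1.73 and -1.25 and the 1 vehicle kidney at -0.54. AAI day 4 minus AAI day 2 was -0.76 (95% interval -1.46 to -0.05), with a limma adjusted p of 0.610. In that comparison limma called 0 miRNAs (0%) and 20 had an unadjusted p under 0.05, although the exact permutation p of miR-451-5p, adjusted over the 6 pairs of groups, was 0.0476. On slide 2 the difference between the 2 AAI day 4 and the 5 AAI day 2 kidneys was -1.07 ± 0.32, with a limma adjusted p of 0.155. AAI day 2 minus vehicle was -0.05 (95% interval -0.76 to 0.65), with a limma adjusted p of 0.943, where 1.53% of the miRNAs were called. That interval holds changes of either sign, and the sign of this small difference turned without scaling between arrays, where it was 0.24.

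Over the 4 groups together miR-451-5p had the highest F of the 262 miRNAs, 28.8, with a limma adjusted p of 7.73e-05, and 17.9% of the miRNAs were called by this F test.

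Both probes of miR-451-5p gave the same picture, but they differ by only 1 base, so their agreement is not independent evidence. The longer probe was 1.99 to 2.25 times as bright as the shorter one (median 2.15 over 20 arrays). On AAI day 6 the shorter probe was well above background on 43 of 50 spots and the longer one on 50 of 50, and both were so on all spots of the other groups. The AAI day 6 minus vehicle difference was -2.70 by the shorter probe and -2.74 by the longer one. The spread of the spots within an array gave the level an SE of 0.00569 to 0.0389 (median 0.0119), far below the spread between kidneys.

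**Figure D2:**
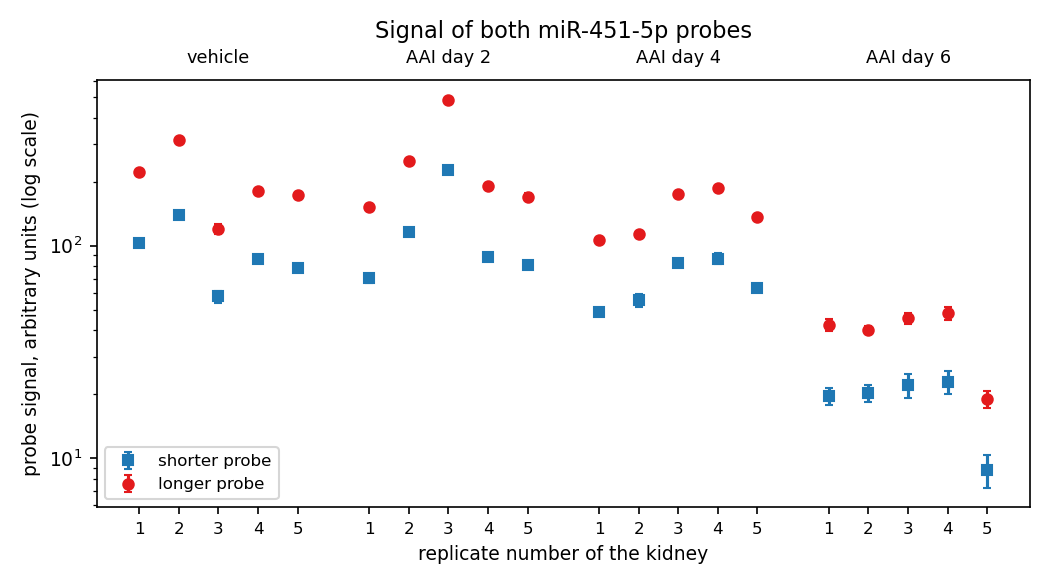
Signal of the shorter (squares) and longer (circles) miR-451-5p probe in each kidney (y axis, arbitrary units on a log scale, before scaling), with kidneys grouped by treatment and numbered by replicate (x axis). Bars are the SD over the spots of a probe; both probes run in parallel over the 20 kidneys, at a ratio of 1.99 to 2.25.

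Kidneys of 1 group differed in miR-451-5p more than in most miRNAs. Its SD around the group means was 0.56, rank 35 from the highest of 262 miRNAs, against a median of 0.21. Among the 231 miRNAs detected on all arrays it ranked 28. Within the vehicle group its SD of 0.65 ranked 11 of 262, where the median miRNA had 0.13. On AAI day 2 its SD of 0.48 also ranked 11 (median 0.19), on AAI day 4 its SD of 0.41 ranked 69 (median 0.24), and on AAI day 6 its SD of 0.66 ranked 32 (median 0.21). No kidney stood apart from its own group by Dixon's test.

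miR-144-3p, the Dicer-dependent partner from the same locus, was much nearer to background. It was called detected in 3 of 5 vehicle kidneys, 3 of 5 AAI day 2 kidneys, 2 of 5 AAI day 4 kidneys and 0 of 5 AAI day 6 kidneys. In the vehicle kidneys its signal was 8.37, 19.3, 6.57, 9.61 and 5.66 units, with kidneys 1, 2 and 4 called detected. On AAI day 2 it was 7.58, 9.69, 36.3, 11.7 and 6.02 units, with kidneys 2, 3 and 4 called detected. The brightest kidney of the series was thus AAI day 2 kidney 3, and the vehicle and AAI day 2 kidneys overlapped.

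On AAI day 4 the signal of miR-144-3p was 6.42, 1.14, 6.49, 13.0 and 10.2 units, with kidneys 4 and 5 called detected. On AAI day 6 it was 1.16, 1.98, -0.12, -1.36 and -1.56 units. All 5 AAI day 6 kidneys lay below all vehicle and all AAI day 2 kidneys, whereas AAI day 4 kidney 2, the dimmest of its group, lay among them. Such a separation, with AAI day 6 below, held for 19.1% of the 262 tested miRNAs against vehicle and 7.25% against AAI day 2. AAI day 6 shared no slide with either of these groups. The longer probe carried the signal: it was well above background on 32% of spots in vehicle, 34% on AAI day 2, 14% on AAI day 4 and 0% on AAI day 6 (50 spots each), and the shorter one on 0 of 200.

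As a share of the array's 75th percentile, miR-144-3p was 2.77 ± 1.61% in vehicle, 2.94 ± 1.90% on AAI day 2, 1.66 ± 1.03% on AAI day 4 and 0.0529 ± 0.390% on AAI day 6 (SD, n = 5 each). Because it was not detected on all arrays of any group, it was not among the 262 miRNAs of the main test, and this share was compared by exact two-sided permutation tests, adjusted over 6 pairs of groups. AAI day 6 lay below vehicle (adjusted p = 0.0238) and below AAI day 2 (adjusted p = 0.0238), and below AAI day 4 with an adjusted p of 0.0476 (exact permutation tests). The other 3 pairs had adjusted p of 0.324 to 0.825.

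On AAI day 6 miR-144-3p was given a stand-in value, the lowest signal among detected miRNAs on each array or its own where that was higher. Kidneys of the brighter groups kept their own signal, also where miR-144-3p was not called detected. The folds are therefore not strict lower bounds. Against the stand-in, AAI day 6 was 2.70-fold lower than vehicle, 2.79-fold lower than AAI day 2 and 1.35-fold lower than AAI day 4. In a limma fit with no filter on detection the AAI day 6 minus vehicle difference was -1.0 ± 0.38 on the floored log2 scale, with an adjusted p of 0.0747. This difference depended on the processing: it was -0.19 under normexp correction, with its 50 added units, and -4.86 with the software's total signal. That total was 990 to 1759 units where miR-144-3p was called detected and 1.86 to 2.53 units elsewhere. It thus mirrors the detection call more than the probe signal. The detection calls alone, 0 of 5 against 3 of 5, gave p = 0.167 by Fisher's exact test for AAI day 6 against vehicle. This permutation test of the share was chosen after the detection pattern had been seen.

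**Figure D3:**
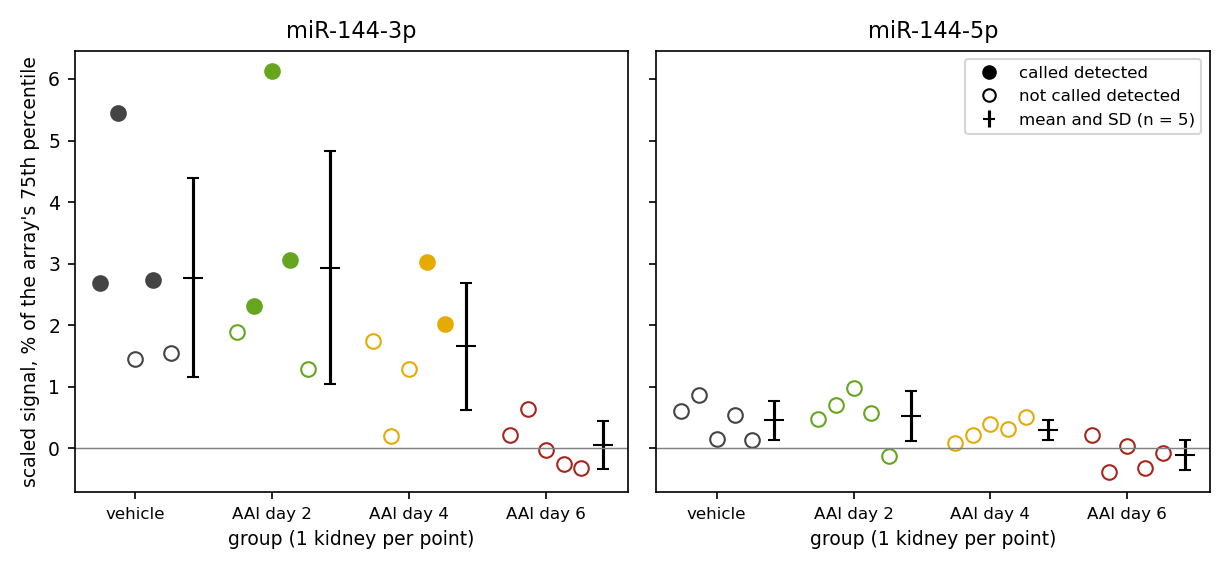
Scaled signal (y axis, % of the array's 75th percentile) of miR-144-3p (left) and miR-144-5p (right) in each kidney by group (x axis). Filled points were called detected, open points were not, and bars beside each group are the mean and SD of 5 kidneys; miR-144-3p has 8 filled points, none of them on AAI day 6, and miR-144-5p has none.

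miR-144-5p, the strand from the other arm of the miR-144 hairpin, was called detected in 0 of 20 kidneys. Its signal ran from 0.479 to 3.09 units in vehicle, -0.543 to 5.82 on AAI day 2, 0.308 to 2.54 on AAI day 4 and -1.68 to 1.16 on AAI day 6. All 20 values lay at the floor set for the log2 scale, so no level and no fold can be given. Of its 400 spots, 1 was well above background, on AAI day 2. Its adjusted p between groups was 0.0635 or more by the exact permutation test of the scaled signal.

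Kidneys with more miR-451-5p also had more miR-144-3p. Over the 15 kidneys outside AAI day 6, Pearson's r between their scaled signals was 0.871 (permutation p = 5.00e-05, adjusted 9.00e-05) and Spearman's rho 0.80 (p = 6.70e-04, adjusted 0.00201). After each group's mean was taken off, r was 0.873 (adjusted permutation p = 1.30e-04) and rho 0.79 (adjusted p = 0.00249). Without the 2 kidneys farthest from the median of miR-451-5p, vehicle kidney 2 and AAI day 2 kidney 3, r was 0.694 before and 0.715 after the group means were taken off. The p-values were adjusted over 3 such sets of kidneys, the last being all 20 with group means taken off (r = 0.871, rho = 0.70).

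Slide 2 alone, with 8 kidneys, gave r = 0.909 (exact permutation p = 0.00260) and rho = 0.86 (exact permutation p = 0.0107). It gave r = 0.556 without AAI day 2 kidney 3 and AAI day 4 kidney 2, the 2 farthest from its median. The other slides held too few kidneys outside AAI day 6 for a value. Both signals of a kidney share the array and its scaling, and before scaling r was 0.930 over the 15 kidneys. The 8 kidneys with miR-144-3p called detected had miR-451-5p levels of -1.34 to 0.36, and the 12 others -4.17 to -0.54. Outside AAI day 6 the 7 kidneys without a detection call had -1.73 to -0.54, which overlapped with the 8. This relation was chosen after the values had been seen.

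**Figure D4:**
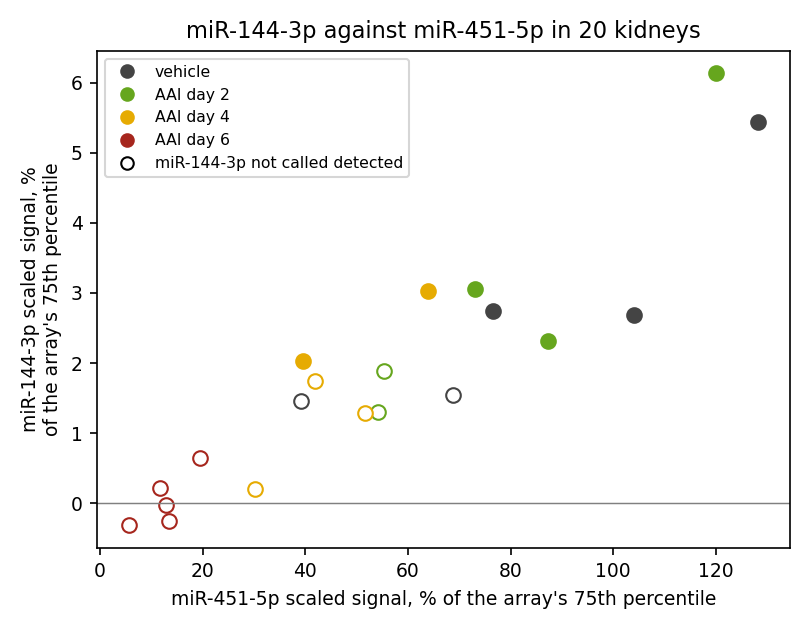
Scaled signal of miR-144-3p (y axis) against that of miR-451-5p (x axis), both in % of the array's 75th percentile, with 1 point per kidney coloured by group and open where miR-144-3p was not called detected. Both are highest in vehicle kidney 2 and AAI day 2 kidney 3, and both are low in the 5 AAI day 6 kidneys.

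The other miRNAs listed as abundant in red cells moved far less than miR-451-5p. The list held 10 names, of which 7 were on the array and 5 were among the 262 tested. miR-486 was not analysed here. Besides miR-451-5p the tested members were miR-16-5p, miR-25-3p, miR-92a-3p and miR-363-3p, of which the first 3 are made by most cell types. Between vehicle and AAI day 6, 2 of the 5 were called lower and none higher: miR-451-5p and miR-16-5p. The median change of the 4 without miR-451-5p was -0.18, against -0.11 over all 262 miRNAs, where 18.7% were called lower.

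miR-16-5p, a repressor of cell cycle genes, differed by -0.26 ± 0.09 with an adjusted p of 0.0463. That call held in 11 of 31 alternatives and was lost in 7 of the 10 that left out 1 kidney (adjusted p up to 0.112). Its sign turned without scaling between arrays (0.11) and with spike-in scaling (0.029). miR-363-3p, from an X-linked cluster, differed by -0.33 with an adjusted p of 0.0513 from vehicle. From AAI day 2 to AAI day 6 miR-363-3p differed by -0.43 with an adjusted p of 0.0276, a call that was lost under 15 of 31 alternatives and turned sign under normexp correction (0.015). miR-25-3p and miR-92a-3p differed by -0.10 and 0.09 from vehicle on AAI day 6 and were not called. The scaling itself moved the median change of all 262 miRNAs on AAI day 6 from -0.11 to 0.26 when arrays were left unscaled, a step small beside the change in miR-451-5p, which was then -2.36.

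Of 7 listed miRNAs of white blood cells and platelets, 6 were tested. Between vehicle and AAI day 6, 2 of the 6 were called lower, where 18.7% of all miRNAs were: miR-146a-5p, a brake on innate immune signalling, and miR-342-3p. The other 4 did not pass the test. miR-146a-5p differed by -0.72 and miR-342-3p by -0.65 (limma adjusted p = 1.91e-05 and 6.02e-04). Without scaling between arrays these were -0.35 and -0.28, and limma called 0 of the 6 (lowest adjusted p = 0.126). The median of the 6 was -0.63, against -0.11 for all 262. miR-142-3p and miR-142-5p, made throughout the blood lineages, differed by -0.69 and -0.60 and were not called, and miR-223-3p and miR-150-5p by -0.17 and 0.01. miR-155-5p was not analysed here.

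The summed level of the leukocyte and platelet list was 0.974 to 1.02 times the vehicle mean in the vehicle kidneys and 0.651 to 0.856 times on AAI day 6. The red cell list without miR-451-5p ran from 0.936 to 1.05 in vehicle and from 0.788 to 0.908 on AAI day 6. For the endothelial pair miR-126a-3p and miR-126a-5p the ranges were 0.988 to 1.01 and 0.772 to 0.971, and limma called 0 of the 2 (adjusted p = 0.0509 and 0.331), where 26% of all miRNAs were called and 18.7% called lower. Each sum adds scaled signals before log2, so its brightest member weighs most. In vehicle the mean level was 3.41 for miR-16-5p, against 0.05 for miR-92a-3p, -0.12 for miR-25-3p and -4.28 for miR-363-3p. It was 3.12 for miR-126a-3p and -1.61 for miR-126a-5p. The red cell sum thus follows mostly miR-16-5p, and the endothelial sum miR-126a-3p. The brightest member of the leukocyte and platelet list was miR-146a-5p, with a mean level of 0.66 in vehicle and -0.06 on AAI day 6. Next in vehicle was miR-150-5p, at -0.18 in both groups. The sums of the lists also depended on the scaling between arrays. Without scaling the mean AAI day 6 sum was 1.13 times the vehicle mean for the red cell list, 1.13 times for the endothelial pair and 0.968 times for the leukocyte and platelet list, and with spike-in scaling it was 1.06, 1.06 and 0.905 times. The part of blood content in the change in miR-451-5p was not tested.

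**Figure D5:**
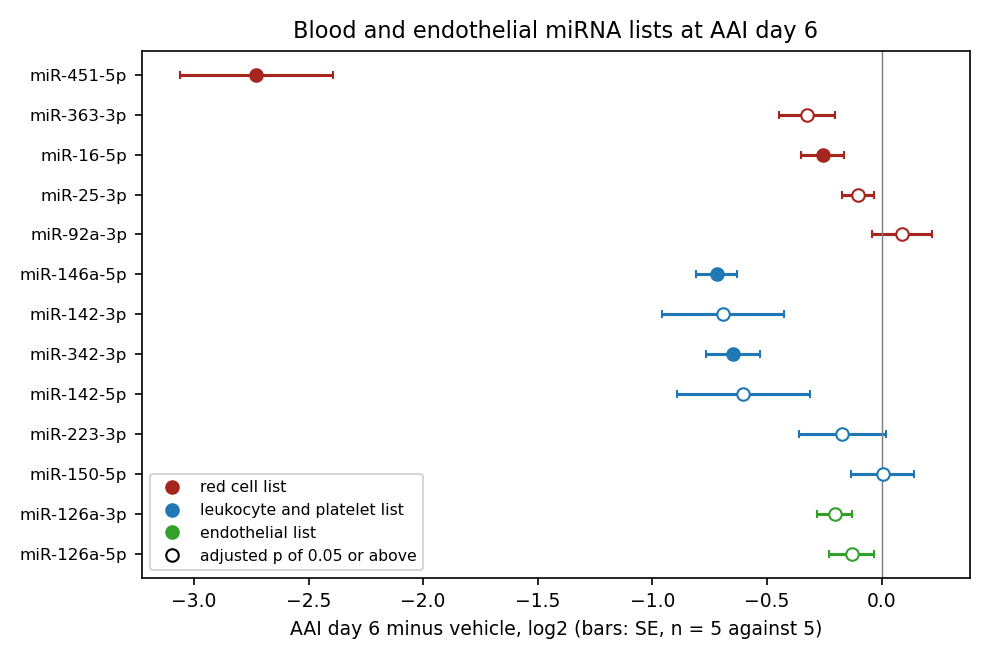
Change between vehicle and AAI day 6 (x axis, log2, bars are the SE of the limma fit, n = 5 against 5) for the 13 tested members of the red cell, leukocyte and platelet, and endothelial lists (y axis). Filled points had an adjusted p under 0.05; miR-451-5p lies at -2.73 and the other 12 between -0.72 and 0.09.

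The miRNAs whose changes were nearest to those of miR-451-5p at days 2, 4 and 6 still differed from it. All 3 changes of a miRNA share the vehicle kidneys. By the root mean square difference over the 3 changes the nearest was miR-3558-3p, at 0.862, with changes of -0.05, -1.13 and -1.27. Its AAI day 6 change had an adjusted p of 0.0509. Next came miR-192-3p (1.16), miR-146a-5p (1.19), miR-185-5p (1.21) and miR-142-3p (1.22), in log2 units.

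Across the 20 kidneys, with each group's mean taken off, the tested miRNAs that ran closest to miR-451-5p were miR-181b-5p (r = 0.54), miR-324-3p (0.54), miR-181d-5p (0.50), miR-146a-5p (0.47) and miR-181a-5p (0.45). Their Spearman's rho was 0.40 to 0.53, and r without the 2 kidneys farthest from the median, AAI day 6 kidney 5 and vehicle kidney 3, was 0.22 to 0.54. Of the 261 relations 0 passed adjustment over all of them (smallest adjusted permutation p for r 0.990), and 10 had an unadjusted p under 0.05.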

How the data were processed

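Kidney RNA was isolated using mirVana columns and hybridised as Cy3 label to 20 arrays, per the labels' protocols. Agilent Feature Extraction 10.7.1.1 measured the spots on a design annotated to rn4, per the file headers. Spot brightness is a background-subtracted intensity (arbitrary units), per the file headers, with no scaling between arrays. Flags deposited beside it mark detection, background and outliers with 0 or 1, an other kind of value. A table of log2 values was also deposited. Its scaling is not given in the sources used here, and it served as an alternative only.

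From the files, outlier-flagged spots were left out, spots were averaged per probe and probes summed per miRNA. Sums were divided by the array's 75th percentile over the 231 miRNAs detected on all arrays, floored at the 0.5th percentile of detected scaled signals, and taken to log2. Group means were fitted with limma 3.58.1 (R 4.3.3) over 262 miRNAs on all 20 arrays, with Benjamini-Hochberg adjustment and a threshold of 0.05. The script was tested on simulated data. Correlations had 100000 permutations, and single values had exact permutation tests. The number of arrays limits the precision. Alternatives were background, scaling, probe summary, floor, filter, slide, replicate block, variance model, the series table and each replicate left out.

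Named miRNAs were the 3 members, those of the 3 lists, and the 5 nearest to miR-451-5p by correlation within groups and the 5 nearest by change. The members and lists were chosen with earlier results of these data known.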

Additional observations from a re-analysis of the deposited data

Results flagged for a closer look

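The change in miR-451-5p relative to vehicle differed between time points by a test of the difference itself, which equals the difference between the AAI groups because they share the vehicle kidneys. Between AAI day 6 and AAI day 4 it was -1.91 on the log2 scale (limma adjusted p = 0.00520, 5 of 5 AAI day 6 kidneys below all AAI day 4 kidneys). Between AAI day 6 and AAI day 2 it was -2.67 (limma adjusted p = 6.24e-05, 5 of 5 below all AAI day 2 kidneys). No kidney of any group stood apart in the level of miR-451-5p by Dixon's test.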

How the results depend on the processing

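For miR-451-5p the AAI day 6 minus vehicle difference ran from -3.07 to -1.40 over 32 alternatives and stayed past the threshold in 31. The exception, with slide as a fixed block and AAI day 4 kidney 2 left out, was chosen after seeing the data and gave -2.83 for AAI day 6 minus vehicle and -2.95 for AAI day 6 minus AAI day 2. AAI day 6 minus AAI day 4 lost its call under normexp (-0.85) and within slide 1 (-2.12), and AAI day 4 minus AAI day 2 (-0.76) gained one by the exact permutation test. AAI day 2 minus vehicle turned positive without scaling (0.24), with spike-in scaling (0.21), with the software's total signal (0.031), with slide as a fixed block (0.11) or a random block (0.081) and within slide 2 (0.11). With 1 kidney left out it ran from -0.30 to 0.13, being positive without vehicle kidney 1 or 2 or AAI day 2 kidney 1 or 5. Leaving out 1 kidney gave -2.97 to -2.46 for AAI day 6 minus vehicle, -2.10 to -1.65 for AAI day 6 minus AAI day 4 and -2.86 to -2.41 for AAI day 6 minus AAI day 2, and all stayed called. It gave -1.06 to -0.63 for AAI day 4 minus vehicle and -0.89 to -0.59 for AAI day 4 minus AAI day 2, none of them called.

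The AAI day 6 minus vehicle difference of miR-144-3p on the floored scale, -1.0, was -0.19 under normexp and -4.86 with the software's total signal. That of miR-144-5p, 0 with every value at the floor, was -0.10 under normexp, and the SD of miR-451-5p between kidneys, 0.56, was 0.38. miR-16-5p turned sign without scaling (0.11) and with spike-in scaling (0.029), and miR-363-3p under normexp (0.015). Calls among all miRNAs numbered 68 for AAI day 6 against vehicle (0 to 89 over the alternatives), 9 for AAI day 4 (0 to 18), 4 for AAI day 2 (0 to 9), 2 for AAI day 6 against AAI day 4 (0 to 8), 29 against AAI day 2 (0 to 95) and 0 for AAI day 4 against AAI day 2 (0 to 35). The causes of these moves were not tested, nor was the share of the normexp moves that came from its 50 added units. Signal over background limits miR-144-3p and miR-144-5p.

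Same-numbered kidneys deviated together in no regular way (correlations of -0.66 to 0.68), so the replicate numbers were not taken as pairs. With the replicate block AAI day 6 minus vehicle was -2.73 with a limma adjusted p of 7.06e-05, and no call for miR-451-5p changed.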

Other observations

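The strand from the other arm of the miR-451 hairpin, miR-451-3p, was called detected in 0 of 20 kidneys, and 1 of its 400 spots was well above background.

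The scanner software also gives a total signal per miRNA. Where miR-144-3p was called detected, that total was 990 to 1759 units, 48.5 to 171 times the sum of its probes. Where it was not, the total was 1.86 to 2.53 units. Over all 5550 detected pairs of miRNA and array, the median of this ratio was 0.665, and 414 pairs (7.46%) in 59 miRNAs had a ratio above 10.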
